A study of Mus musculus with 48 samples.

Results

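The genes described here are 36 aminoacyl tRNA synthetase genes of the mouse. They were taken from a list of symbols and not by a cut on their values, though with earlier results of these data known. Of them, 20 encode cytosolic enzymes or subunits, named by the letter of the amino acid (Aars for alanine). The other 16 have names ending in 2 and encode mitochondrial enzymes. All 36 symbols were found among the 24062 genes of the files. RNA was sequenced from medial prefrontal cortex; the mice were of the inbred C57BL/6 strain, and the labels give no age. Ethanol mice could choose to drink 15% ethanol on alternate days over 60 days, and their controls had only water. In a further cohort, an intraperitoneal injection of 1.5 mg/kg lipopolysaccharide (LPS, a bacterial Toll-like receptor 4 ligand) or of saline was followed by 1 week before the tissue was taken. From each drinking mouse a small part of the minced tissue was kept as total homogenate, in which all cell types are mixed. The remainder was taken apart into cells, freed of myelin with Percoll and bound to beads against CD11b, and the bound cells are called microglia, though neutrophils, monocytes and border macrophages carry CD11b too. The groups held 9 water and 10 ethanol homogenates, 8 water and 10 ethanol microglial libraries, and 5 LPS and 5 saline microglial libraries; the microglia of water mouse 26 were not analysed here.

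Each aminoacyl tRNA synthetase joins an amino acid to the transfer RNAs that carry its anticodons, using ATP, and so supplies the ribosome with charged tRNA. The cytosol and the mitochondrion have separate sets of enzymes, all encoded in the nucleus, except that Gars (glycine) and Kars (lysine) each make both forms from a single gene. The enzymes fall into class I and class II by the fold of the catalytic domain. Several cytosolic ones are held in the multisynthetase complex by the scaffold proteins encoded by Aimp1, Aimp2 and Eef1e1. When amino acids or charged tRNA run short, the kinase GCN2 (Eif2ak4) and other eIF2 kinases raise translation of the transcription factor ATF4, and many cytosolic synthetase genes are among its known targets. Wars (tryptophan) is known as an interferon gamma-induced gene. In humans, dominant variants of the genes for the glycine and tyrosine enzymes are known causes of inherited neuropathy, and variants of many mitochondrial ones of brain and white matter disease.

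ATF4 together with a C/EBP partner binds an element whose core is TGATGNAA. The core was searched on both strands of the promoter windows in a RefSeq table of build GRCm38.p6, which run from 250 bases before to 50 bases after each start. Windows were found for 26 of the 36 members. The core was present in 5 of those 26 (19.2%), against 1219 of 27025 genes in the table (4.51%). All 5 were cytosolic, of 12 cytosolic members with a window, and none of the 14 mitochondrial windows held it. Matches are shown because Aars and Yars, both among these genes, have one of the 4 smallest p of the members in each treatment comparison given later. Capitals mark the core, and the other bases are the 11 on each side, printed along the gene's own strand.
Yars, chr4:129189895-129189924, plus strand, core from 3 bases after the start: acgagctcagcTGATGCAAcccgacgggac
Gars, chr6:55037960-55037989, plus strand, core from 30 bases before the start: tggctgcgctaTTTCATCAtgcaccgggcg
Aars, chr8:111033840-111033869, plus strand, core from 9 bases after the start: agcgggtcactTTTCATCAgagcgctctga
Iars, chr13:49682126-49682155, plus strand, core from 7 bases after the start: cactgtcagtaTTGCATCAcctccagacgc
Tars, chr15:11399655-11399684, minus strand, core from 15 bases before the start: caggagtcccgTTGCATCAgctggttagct
The Yars core reads forward as printed, and the others read as the reverse complement. In the GENCODE M21 annotation the printed matches of Yars, Aars and Iars lie inside an exon of some transcript and those of Gars and Tars do not. The starts are those of RefSeq. No start of a GENCODE transcript was found in the windows of Aars, Dars, Kars, Sars and Tars2, so distances and absences there depend on the RefSeq start. A match is a run of letters and not a measured binding site.

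Values are given as CPM, the count of a gene scaled to the total in genes of its library. That total was 9.72 M (mega) to 67.5 M, lowest for the microglia from water mouse 24, with a mean of 51.02 M ± 13.1 (SD, n = 9) in water homogenates, 38.02 M ± 13.2 (n = 10) in ethanol homogenates and means of 27.2 to 29.6 M in the 4 microglial groups. The 10 microglial markers, all detected, summed to 26530 to 36667 CPM in the microglial libraries and 523 to 677 CPM in homogenates, and the 10 neuronal markers to 33.5 to 229 CPM and 9414 to 15640 CPM. In microglial groups Rbfox3, Gad1, Gad2 or Stmn2 was at 0 in 1 or 2 libraries. Border macrophage markers summed to 1731 to 2776 CPM in microglia of the drinking mice. A pair of water microglial libraries stood apart: that of mouse 24, in which 56.1% of uniquely aligned reads lay outside genes, and that of mouse 19, whose 10 neutrophil markers summed to 17131 CPM against 45.9 to 686 CPM in the other microglia of drinking mice. Member results that change without these libraries are given both ways. Of the members, 34 had counts in every library. Pars2 had 0 counts in the microglia of water mouse 15 and saline mouse 38, and Mars2 in those of LPS mouse 51, where a count of 0 allows up to 0.116, 0.144 and 0.141 CPM.

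The summed level of the 20 cytosolic genes was 1463 ± 71.0 CPM (SD, n = 9) in water homogenates, 1387 ± 55.9 (n = 10) in ethanol homogenates, 1558 ± 116 (n = 8) in water microglia, 1646 ± 106 (n = 10) in ethanol microglia, 1643 ± 138 (n = 5) in saline microglia and 1487 ± 48.5 (n = 5) in LPS microglia. These ranges overlap between water microglia (1316 to 1670 CPM) and water homogenates (1353 to 1616 CPM). In ethanol mice they did not, with 1544 to 1843 CPM in microglia and 1315 to 1467 CPM in homogenates. The mitochondrial genes without Lars2 summed to 275 ± 11.1 CPM in water homogenates and 241 ± 28.2 CPM in water microglia. Lars2 is set aside and described with ribosomal RNA further on, since its counts may hold ribosomal reads.

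**Figure D1:**
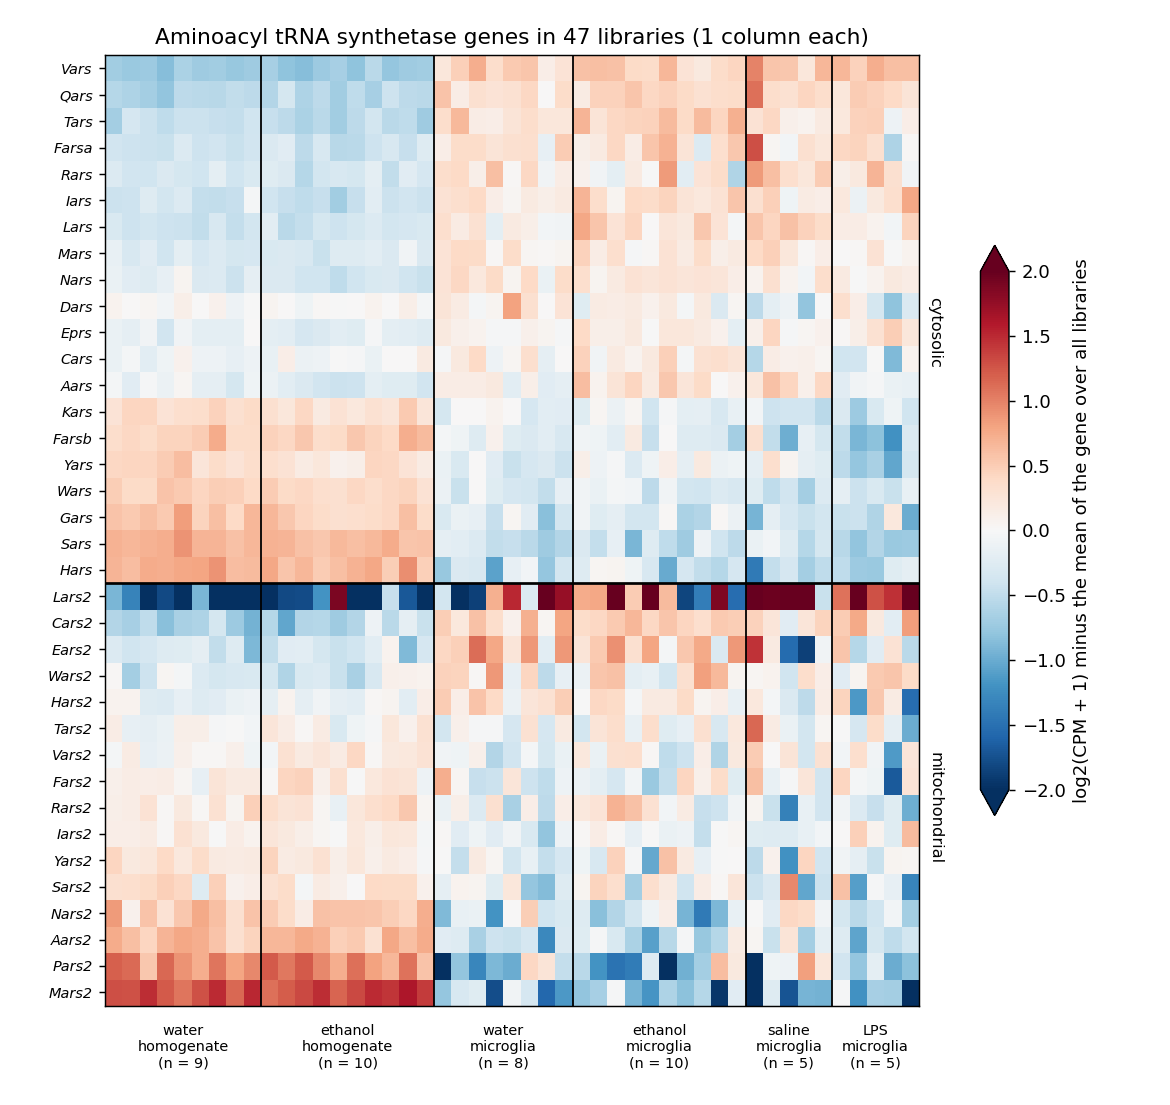
Levels of each of the 36 genes in 47 libraries of the 6 groups, one row per gene and one column per library. Colour is log2(CPM + 1) minus the mean of the gene over all libraries, with cytosolic genes above and mitochondrial genes below. Group means of Lars2 ran from 595 to 13303 CPM, and Mars2 and Pars2 had the lowest means in each microglial group.

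Genes can be compared with each other only per length, here as mean CPM per kb of exons in GENCODE M21, whose exons may differ from those the authors counted. The length joins the exons of all annotated transcripts of a gene, 18102 bases for Eprs. The orders and counts below hold for that length, and no other length was tested. Nars, which charges asparagine, was the highest cytosolic gene per length in all 6 groups, with 43.8 ± 4.21 CPM per kb in water homogenates and 60.5 ± 7.63 in water microglia. After it the order differed between the preparations. In water homogenates Gars (30.6), Sars (29.2), Wars (26.8) and Hars (26.7 CPM per kb) followed closely, and the neighbours Wars and Hars differed by less than their spread. In water microglia Vars (25.3), Mars (22.5), Aars (20.8) and Iars (17.02 CPM per kb) came next, and Vars and Mars, and Mars and Aars, differed by less than the SD of the higher gene. The cytosolic median was 11.99 CPM per kb in water homogenates and 11.7 in water microglia, and the mitochondrial median without Lars2 was 3.11 and 3.03. Of the 15 mitochondrial genes other than Lars2, 11 lay below every cytosolic gene in water homogenates and 14 did in water microglia. By that length the lowest were Ears2 (1.01 CPM per kb) in homogenates and Mars2 (0.231) in microglia. Libraries of a group differed by a median coefficient of variation of 6.46% for cytosolic and 11.5% for mitochondrial genes in water homogenates, and of 12.7% and 25.1% in water microglia.

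Isolated microglia differed from whole tissue in all 20 cytosolic genes in water mice and in 19 in ethanol mice, and in both directions. In water mice 18 of the 36 members were higher in microglia and 14 lower by edgeR's quasi-likelihood test at an adjusted p of 0.05, where 35.3% of all 15057 genes tested were higher and 49.1% lower. In ethanol mice 18 were higher and 10 lower, against 38.8% and 45.6% of 14637 genes. The median log2 fold change was 0.14 in water and 0.19 in ethanol mice over the members, and -0.37 and -0.21 over all genes tested. The same 18 genes were higher in both sets of mice: 13 cytosolic (Aars, Cars, Dars, Eprs, Farsa, Iars, Lars, Mars, Nars, Qars, Rars, Tars and Vars) and 5 mitochondrial (Cars2, Ears2, Hars2, Lars2 and Wars2). The same 10 were lower in both: Farsb, Gars, Hars, Kars, Sars and Wars in the cytosol, and Aars2, Mars2, Nars2 and Pars2 in the mitochondrion. Yars, Iars2, Sars2 and Yars2 passed as lower in water mice and had log2 fold changes of -0.10, 0.00, 0.06 and 0.02 in ethanol mice. Within single mice that gave both preparations, 8 water and 10 ethanol, 10 members were above the mouse's own homogenate in all 18 and another 10 were below it in all 18, against 25.5% and 40.8% of the 14580 genes tested in both sets of mice. Between the preparations 19 members (52.8%) did not overlap in water mice, against 64.1% of all genes tested, and 18 did not in ethanol mice, against 62.0%. Microglia were dissociated and homogenates were not, so cell type and handling cannot be told apart here, nor can fewer cells of a type and less RNA per cell.

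**Figure D2:**
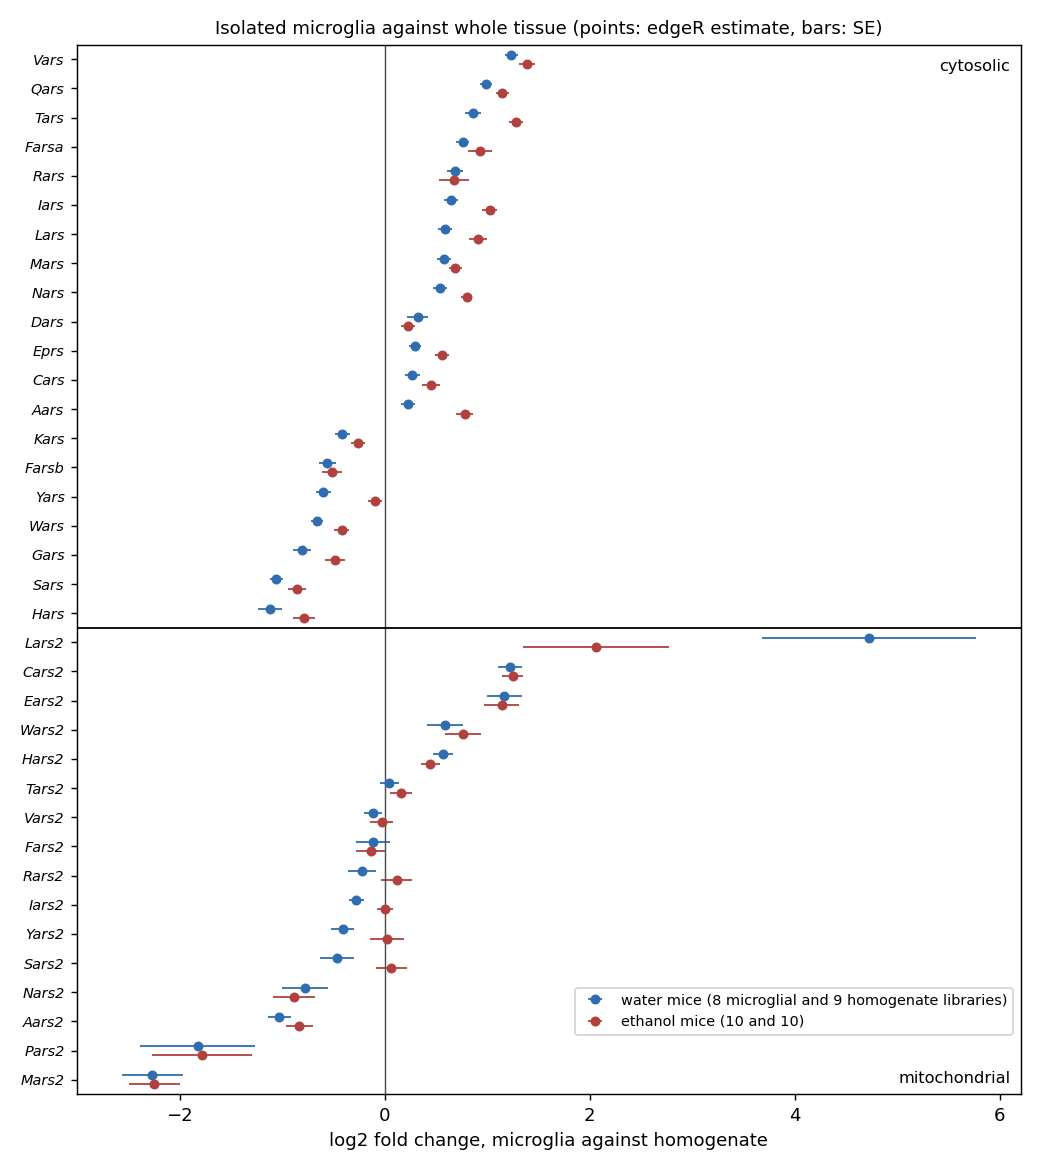
Log2 fold change of microglia against homogenate for each of the 36 genes (points, edgeR estimate; bars, SE) in water mice and in ethanol mice, cytosolic genes above and mitochondrial genes below. The 13 cytosolic genes from Vars to Aars lie right of 0 and the 7 from Kars to Hars left of it in water mice, and Vars reaches 1.23 and 1.39 while Mars2 reaches -2.27 and -2.25.

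Class I enzymes of the cytosol were mostly higher in microglia: 8 of 10 passed as higher and 2, Wars and Yars, as lower in water mice. Over all genes tested in water mice the shares were 35.3% and 49.1%. Vars, which charges valine, had a lowest, median and highest level of 58.2, 64.1 and 67.99 CPM in water homogenates and 116, 141 and 177 CPM in water microglia. Every microglial library lay above every homogenate, and on the log2 scale the change was 1.23 (SE 0.06, adjusted p = 2.43e-12) in water mice and 1.39 (SE 0.08, adjusted p = 2.25e-13) in ethanol mice. Qars, the glutamine enzyme, was likewise separated, with 35.3, 41.8 and 43.6 CPM against 62.3, 76.7 and 92.4 CPM and log2 fold changes of 0.98 (SE 0.06, adjusted p = 2.16e-11) and 1.15 (SE 0.06, adjusted p = 1.82e-13). Iars (isoleucine) rose from 54.8, 57.98 and 75.5 CPM in homogenates to 79.3, 87.5 and 102 CPM in microglia without overlap. The leucine enzyme gene Lars, whose product is also known as a leucine sensor for mTORC1, gave 40.5, 42.9 and 46.02 and 49.8, 62.9 and 72.1 CPM, again without overlap. Mars (methionine) gave 50.2, 53.2 and 59.8 and 67.4, 74.8 and 88.4 CPM, and Rars (arginine) 27.2, 28.2 and 31.4 and 34.6, 43.4 and 55.8 CPM. Both were separated in water mice, at log2 fold changes of 0.58 and 0.69. Smaller rises, with overlapping groups, were measured for Eprs, which charges glutamate and proline (82.8, 95.2 and 108 against 106, 113 and 123 CPM), and Cars, the cysteine enzyme (36.2, 39.1 and 44.8 against 37.04, 42.7 and 55.97 CPM). Their log2 fold changes in water mice were 0.30 and 0.27. Eprs, though it serves both amino acids, was counted in class I alone.

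Wars and Yars ran the other way. Wars (tryptophan) had 86.9, 93.1 and 99.4 CPM in water homogenates and 47.2, 54.3 and 66.99 CPM in water microglia, without overlap; on the log2 scale the change was -0.66 (SE 0.06, adjusted p = 7.51e-09), and -0.42 (SE 0.07, adjusted p = 2.22e-05) in ethanol mice. Yars (tyrosine) had 77.7, 87.4 and 101 and 47.99, 53.1 and 65.7 CPM in water mice, also without overlap, at a log2 fold change of -0.60. In ethanol mice the groups of Yars overlapped, with 69.1, 77.9 and 88.6 CPM in homogenates and 53.99, 61.5 and 74.9 CPM in microglia, and the difference did not pass (log2 fold change -0.10 (SE 0.07, adjusted p = 0.19)).

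Class II enzymes of the cytosol were evenly divided, with 5 higher and 5 lower in both sets of mice. All genes tested gave 35.3% higher and 49.1% lower in water mice, and 38.8% and 45.6% in ethanol mice. Tars (threonine) was the furthest up, from 22.1, 26.4 and 28.5 CPM in water homogenates to 39.8, 42.9 and 57.1 CPM in water microglia, at log2 fold changes of 0.86 (SE 0.08, adjusted p = 9.72e-09) in water and 1.28 (SE 0.07, adjusted p = 7.77e-14) in ethanol mice. Nars gave 163, 189 and 229.999 and 201, 275 and 294 CPM, with overlap. Aars, which charges alanine, gave 149, 174 and 196 and 161, 207 and 217 CPM; its groups overlapped in water mice and not in ethanol mice, where it had 139.7, 158 and 175 CPM in homogenates and 189.9, 225 and 291 CPM in microglia. Dars (aspartate) gave 35.5, 38.4 and 41.7 and 37.2, 44.5 and 67.7 CPM, also with overlap. Among the 5 lower genes the largest fall in water mice was that of Hars (histidine), from 60.4, 65.2 and 74.2 to 18.1, 30.6 and 37.5 CPM, at -1.12 (SE 0.12, adjusted p = 6.93e-08) and -0.79 (SE 0.11, adjusted p = 6.14e-07) on the log2 scale. Sars, the serine enzyme, fell from 139, 148 and 173 to 56.1, 66.1 and 81.1 CPM, at -1.06 (SE 0.06, adjusted p = 2.73e-11) and -0.86 (SE 0.09, adjusted p = 8.84e-09). Gars fell from 83.99, 94.7 and 114 to 35.1, 52.6 and 65.4 CPM, at -0.81 (SE 0.08, adjusted p = 5.35e-08) in water mice, and Kars from 52.5, 55.2 and 60.02 to 33.7, 40.4 and 45.2 CPM. None of these 4 genes overlapped between the preparations in water mice, and both genes that serve the cytosol and the mitochondrion, Gars and Kars, were among them. Hars shares 195 exon bases with Hars2 on the opposite strand, and whether counting used the strand is not given in the sources used here.

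Parts of one enzyme or complex did not move together. Phenylalanyl-tRNA synthetase is built from the alpha subunit Farsa and the beta subunit Farsb. Farsa rose from 24.4, 25.1 and 27.6 CPM in water homogenates to 29.8, 42.4 and 48.4 CPM in water microglia, and Farsb fell from 32.8, 33.98 and 43.1 to 20.03, 21.5 and 26.9 CPM. Neither gene overlapped between these groups, with log2 fold changes of 0.76 and -0.56 in water mice and 0.93 and -0.52 in ethanol mice. Of the 8 genes for enzymes of the multisynthetase complex, 7 were higher in microglia and 1, Kars, lower. The shares over all genes tested in water mice were 35.3% higher and 49.1% lower. All 3 scaffold genes were lower. Eef1e1 had 11.7 ± 1.17 CPM (SD, n = 9) in water homogenates and 4.99 ± 1.08 (n = 8) in water microglia, Aimp2 had 13.9 ± 1.19 and 7.78 ± 2.12, and Aimp1 27.2 ± 1.61 and 16.3 ± 2.83. On the log2 scale they fell by 1.15 (SE 0.16, adjusted p = 1.73e-06), 0.76 (SE 0.14, adjusted p = 6.65e-05) and 0.66 (SE 0.10, adjusted p = 9.38e-06). In ethanol mice the 3 log2 fold changes were -0.61, -0.45 and -0.45, and each passed.

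Mitochondrial enzymes were split as well, with 5 of 16 higher and 7 lower in water mice and 5 higher and 4 lower in ethanol mice. Among all genes tested 35.3% were higher and 49.1% lower in water mice, and 38.8% and 45.6% in ethanol mice. Cars2 rose most after Lars2, from 7.98, 10.1 and 12.6 CPM in water homogenates to 16.9, 22.2 and 29.1 CPM in water microglia, at log2 fold changes of 1.22 (SE 0.12, adjusted p = 1.35e-08) and 1.25 (SE 0.11, adjusted p = 4.01e-10). Ears2, the glutamate enzyme, gave 3.25, 5.63 and 6.01 and 5.86, 11.4 and 16.2 CPM, with a slight overlap, at 1.16 (SE 0.17, adjusted p = 4.72e-06) and 1.14 (SE 0.17, adjusted p = 2.02e-06). Hars2 gave 21.6, 23.4 and 27.8 and 24.3, 34.2 and 39.7 CPM, and Wars2 5.76, 7.74 and 10.1 and 6.58, 11.8 and 18.7 CPM. Hars2 and Wars2 were thus higher in microglia, while the cytosolic enzymes for the same amino acids, Hars and Wars, were lower. Mars2 (methionine) fell furthest, with 0.674, 2.94 and 4.46 CPM in water microglia against 10.998, 12.9 and 15.2 CPM in homogenates, at log2 fold changes of -2.27 (SE 0.30, adjusted p = 1.38e-06) and -2.25 (SE 0.25, adjusted p = 3.03e-08). Pars2 (proline) gave 0, 1.27 and 4.45 CPM against 4.93, 6.96 and 8.32 CPM, at -1.83 (SE 0.56, adjusted p = 0.00579) and -1.78 (SE 0.48, adjusted p = 0.00191). Aars2 gave 8.85, 17.6 and 19.6 against 29.1, 35.7 and 40.3 CPM, at -1.03 (SE 0.11, adjusted p = 1.03e-07) and -0.83 (SE 0.13, adjusted p = 4.82e-06). Mars2, Pars2 and Aars2 did not overlap between the preparations in water mice. Nars2 gave 2.86, 6.52 and 11.4 against 8.32, 12.1 and 14.9 CPM, at -0.89 (SE 0.20, adjusted p = 0.000405) in ethanol mice, where it did not overlap.

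Of the other 7 mitochondrial genes 3 passed in water mice and none in ethanol mice. Iars2 had 48.5, 53.7 and 60.2 CPM in water homogenates and 27.7, 43.5 and 49.4 CPM in water microglia, Yars2 had 12.4, 12.8 and 15.1 and 7.599, 9.0996 and 12.5 CPM, and Sars2 had 6.79, 10.8 and 11.98 and 4.12, 7.05 and 9.895 CPM. These 3 passed as lower in water mice, at log2 fold changes of -0.28, -0.41 and -0.47, and none of them did when water mouse 19 was left out, when 19 members were higher and 11 lower, with Tars2 gained. Fars2 (9.02, 11.4 and 12.5 against 6.89, 8.44 and 17.5 CPM), Rars2 (10.4, 11.4 and 14.6 against 6.16, 10.2 and 12.98 CPM), Tars2 (26.5, 29.4 and 33.4 against 23.1, 29.5 and 37.4 CPM) and Vars2 (27.2, 31.01 and 34.3 against 20.1, 28.2 and 32.9 CPM) passed in neither set of mice. Of Iars2's exon bases, 2034 (22.9%) overlap Rab3gap2 on the opposite strand, and 501 of Fars2's overlap Nrn1. How the libraries were scaled mattered in ethanol mice: with DESeq2's size factors in edgeR the median over all genes moved from -0.21 to -0.43, Fars2, Iars2, Vars2 and Yars also passed as lower, and Dars no longer passed.

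Other genes of translation and its control moved between the preparations on lists chosen for their link to these enzymes. The counts on these lists stand beside 35.3% of all genes tested higher and 49.1% lower in water mice. In ethanol mice these shares were 38.8% and 45.6%. Of 6 cytosolic elongation factors 3 were higher and 2 lower in both sets of mice. Eef1a1, which brings charged tRNA to the ribosome, had 1476 ± 133 CPM in water homogenates and 3174 ± 369 CPM in water microglia (log2 fold change 1.18, SE 0.07, adjusted p = 2.03e-11). Its paralogue Eef1a2, known from neurons and muscle, had 1119 ± 88.9 and 6.14 ± 5.55 CPM (-7.45, SE 0.45, adjusted p = 2.47e-11). Of 4 mitochondrial elongation factors 3 were lower in water mice, among them Gfm1 at 35.3 ± 2.74 and 19.3 ± 3.61 CPM (-0.80, SE 0.10, adjusted p = 7.74e-07). The list of eIF2 kinases and eIF2 subunits had 6 of 12 higher and 2 lower in water mice. Eif2ak2 (PKR) was at 8.43 ± 1.11 and 33.6 ± 4.82 CPM (2.07, SE 0.10, adjusted p = 6.21e-13), and Eif2ak4 (GCN2) at 26.2 ± 1.75 and 51.001 ± 6.72 CPM (1.04, SE 0.08, adjusted p = 3.33e-10).

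Known ATF4 targets outside the synthetases were also divided, 13 higher and 11 lower of 27 in water mice and 15 and 10 of 26 in ethanol mice. For all genes tested the shares were 35.3% higher and 49.1% lower in water mice, and 38.8% and 45.6% in ethanol mice. The targets that rose included stress genes with very large differences. Falls could be large too, with a lowest log2 fold change on the list of -8.50 in water and -5.39 in ethanol mice. Atf3, a stress-induced transcription factor, had 3.81 ± 1.54 CPM in water homogenates and 2894 ± 500.2 CPM in water microglia (9.64, SE 0.31, adjusted p = 2.63e-15). Ppp1r15a, which encodes the phosphatase subunit GADD34, had 11.5 ± 0.87 and 879.9 ± 114 CPM (6.34, SE 0.09, adjusted p = 1.08e-19). Atf4 itself had 94.8 ± 6.84 and 468 ± 62.1 CPM (2.38, SE 0.07, adjusted p = 6.32e-16). These values stand beside those of the synthetases without a test of any link. Interferon gamma targets were higher in 13 of 14 and lower in none in water mice, and Irf1 had 7.37 ± 2.88 and 234 ± 31.9 CPM (5.07, SE 0.21, adjusted p = 1.34e-13), while Wars, also an interferon gamma target, was lower. Among genes for editing and for making charged tRNA by amidation, 3 of 9 were higher and 4 lower in water mice, with Dtd1, a D-aminoacyl-tRNA deacylase, at 28.9 ± 3.77 and 4.25 ± 2.0025 CPM (-2.68, SE 0.26, adjusted p = 2.52e-08).

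Lars2, the mitochondrial leucine enzyme, had per length the highest mean of all members in each group and spread over orders of magnitude between libraries. Its lowest, median and highest levels were 307, 463 and 1016 CPM in water homogenates, 228, 549 and 7004 CPM in ethanol homogenates, 205, 2346 and 84524 CPM in water microglia and 536, 3079.7 and 14259.8 CPM in ethanol microglia. Saline microglia had 15845, 7455, 13268, 23899 and 1403 CPM and LPS microglia 4051, 28533, 4628, 5264 and 24038 CPM. The top values of the drinking mice belonged to 1 library each, ethanol homogenate 14 and water microglia 24. Rn45s, the precursor of ribosomal RNA, had 953, 1529 and 6423 CPM in water homogenates, 975, 1746 and 62296 in ethanol homogenates, 785, 3094 and 102639 in water microglia and 1289.7, 3963 and 11256 in ethanol microglia, and its top values came from the same 2 libraries. In the microglia of water mouse 24 both genes together made up 18.7% of all counts in genes.

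Across libraries, Lars2 and Rn45s went up and down together in 3 of the 4 groups large enough to test. On log2(CPM + 1), Pearson's r was 0.980 and Spearman's rho 0.903 over 10 ethanol homogenates, 0.974 and 0.915 over 10 ethanol microglia, 0.964 and 0.976 over 8 water microglia and 0.646 and 0.633 over 9 water homogenates. By two-sided permutation tests, exact in groups under 10 and adjusted over these 4 relations, p was 9.92e-05 for r in each of the first 3 groups and 0.0561 in water homogenates, and p for rho was 0.000933 in the first 3 and 0.0760 in the last. Without the 2 libraries farthest from the median of Rn45s, r was 0.838, 0.960, 0.927 and 0.641, with adjusted permutation p of 0.0185, 0.00248, 0.0185 and 0.126. Lars2 reached a median of 0.277 of the Rn45s level in water homogenates and 0.243 in ethanol homogenates, and 0.773 to 0.954 in the 4 microglial groups. The part of ribosomal reads in the Lars2 counts was not tested. Between preparations Lars2 changed by 4.72 (SE 1.04, adjusted p = 0.000409) on the log2 scale in water mice and 2.06 (SE 0.71, adjusted p = 0.0109) in ethanol mice. The first was 2.17 without mouse 24 and 2.01 with the mouse as a block, where it no longer passed (adjusted p = 0.0876, the highest over its alternatives, the lowest being 7.33e-05).

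**Figure D3:**
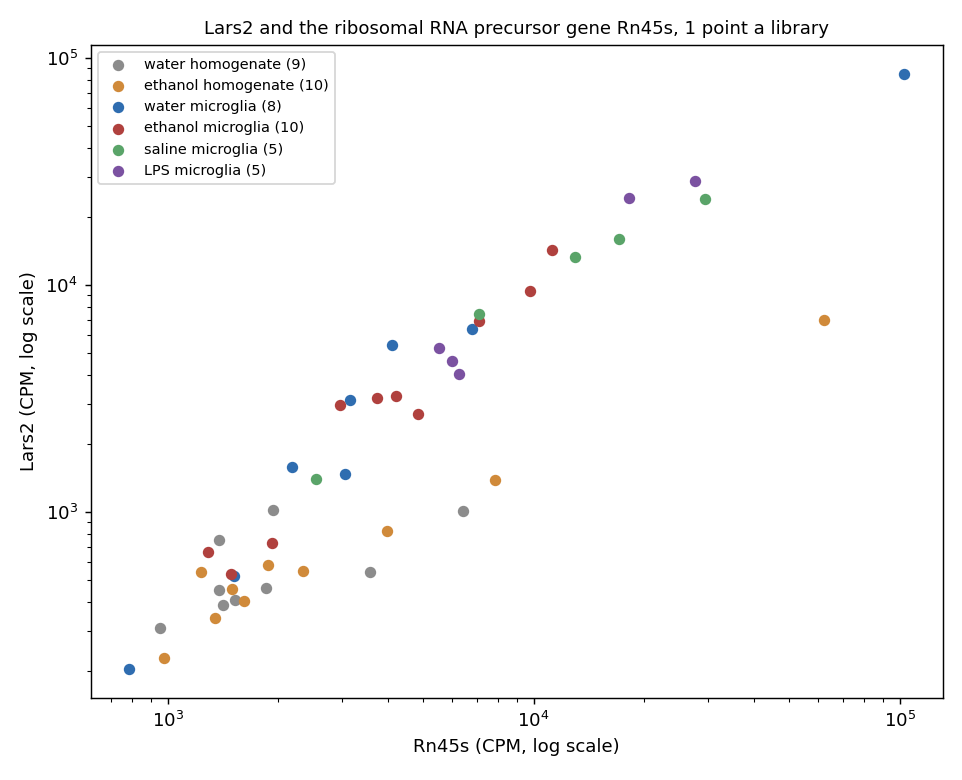
Lars2 against Rn45s in all 47 libraries, both in CPM on log10 axes, coloured by group. Microglial libraries lie closer to equal levels of both genes (median ratio 0.773 to 0.954) than homogenates (0.243 and 0.277), and water mouse 24 reaches 84524 and 102639 CPM.

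Whether drinking ethanol changed these genes in microglia was asked by setting 10 ethanol against 8 water libraries. No member passed edgeR's test, where 0.00756% of 13223 genes did, and none passed DESeq2, which called 0.453% of the 10807 genes to which it gave an adjusted p. At an unadjusted p under 0.05 there were 3 members of 36 (8.33%), against 1011 of all genes tested (7.65%). The median log2 fold change was 0.02 over the members and -0.01 over all genes. The 4 members with the smallest p were Aars, Yars, Dars and Tars. Aars had 161, 207 and 217 CPM in water and 189.9, 225 and 291 CPM in ethanol microglia, with 6 of 10 ethanol libraries above every water library. Yars had 47.99, 53.1 and 65.7 and 53.99, 61.5 and 74.9 CPM, and Tars 39.8, 42.9 and 57.1 and 43.4, 49.6 and 59.4 CPM. In each of these 2 genes all 10 ethanol libraries lay above the water median, though the groups overlapped. Dars had 37.2, 44.5 and 67.7 and 31.2, 41.6 and 43.8 CPM, with all 10 ethanol libraries below the water median; its highest water value is that of mouse 19. The log2 fold changes were 0.24 (SE 0.08, adjusted p = 0.448) for Aars, 0.19 (SE 0.08, adjusted p = 0.608) for Yars, 0.18 (SE 0.09, adjusted p = 0.651) for Tars and -0.24 (SE 0.11, adjusted p = 0.625) for Dars, and over the alternative settings adjusted p for Aars lay between 0.222 and 0.993. Without mice 19 and 24 that of Dars was -0.12 and the other 3 were 0.20. Within the sets of libraries that share a run of index numbers, Aars was at 0.24 in the first set and 0.13 in the second, Yars at 0.26 and 0.16, Tars at 0.23 and 0.09, and Dars at -0.26 and -0.20. Neutrophil markers were at a median log2 fold change of -2.78 in this comparison, negative in 9 of 9, but at 1.03, positive in 9 of 9, without mouse 19. Without that library the sign was thus the opposite, and their summed level had a median of 356 CPM in all ethanol and 158 CPM in all water microglia. Oligodendrocyte markers were positive in 8 of 8, at a median of 0.65 (0.53 without mouse 19), and summed to 199 to 975 CPM in ethanol and 271 to 565 CPM in water microglia. Border macrophage markers were at -0.26, negative in 8 of 8 (-0.22 without mouse 19). The part of these markers in the values of the members was not tested.

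Wars did not differ beyond its spread, with 47.2, 54.3 and 66.99 CPM in water and 46.1, 57.8 and 64.7 CPM in ethanol microglia, and 0.02 (SE 0.08, adjusted p = 0.995) on the log2 scale, whose sign changed under other settings. Lars2 had -1.78 (SE 0.89, adjusted p = 0.664), and 0.73 without water mouse 24.

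**Figure D4:**
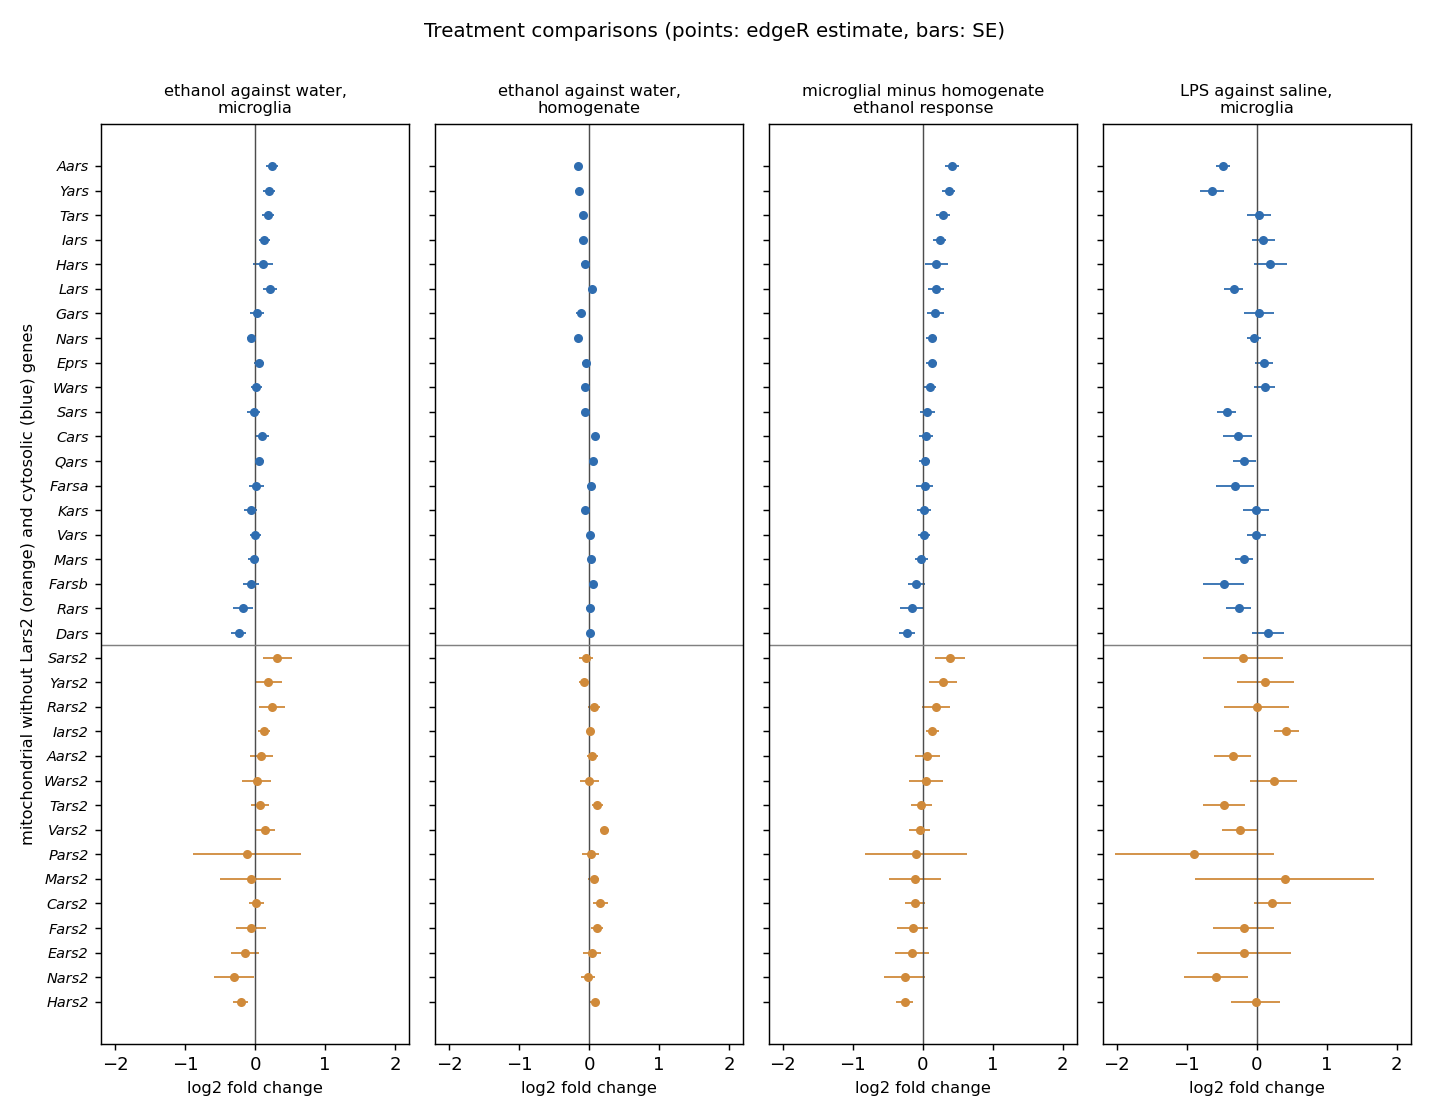
Log2 fold change of each gene other than Lars2 (points, edgeR estimate, and bars, SE), cytosolic genes above and mitochondrial genes below. Panels show ethanol against water in microglia and in homogenate, the microglial minus homogenate ethanol response, and LPS against saline. No gene passed edgeR's test, and Aars and Yars stand lowest among cytosolic genes after LPS.

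In whole tissue, 10 ethanol homogenates were set against 9 from water mice. No member passed edgeR's test (0.808% of 15215 genes did), 4 of 36 (11.1%) had an unadjusted p under 0.05 against 2456 of all genes tested (16.1%), and DESeq2 called 1 member, Vars2, and 3.73% of 14091 genes. Vars2, the mitochondrial valine enzyme, had 27.2, 31.01 and 34.3 CPM in water and 29.3, 35.5 and 40.9 CPM in ethanol homogenates. Of the 10 ethanol libraries 8 were above every water library. Its log2 fold change was 0.22 (SE 0.06, adjusted p = 0.0956) by edgeR and 0.21 by DESeq2 (adjusted p = 0.0489), and edgeR's adjusted p over the alternatives ran from 0.0433 to 0.585, passing without ethanol homogenate 1 or without 3, at 0.25 each. Nars had 163, 189 and 229.999 and 155, 167 and 181 CPM, Aars 149, 174 and 196 and 139.7, 158 and 175 CPM and Yars 77.7, 87.4 and 101 and 69.1, 77.9 and 88.6 CPM. All 3 had lower medians with ethanol and overlapped, at log2 fold changes of -0.15 (SE 0.05, adjusted p = 0.157), -0.15 (SE 0.05, adjusted p = 0.165) and -0.14 (SE 0.05, adjusted p = 0.174). Wars was at -0.06 (SE 0.04, adjusted p = 0.49) and Lars2 at 1.08 (SE 0.56, adjusted p = 0.351), the latter -0.01 without ethanol homogenate 14.

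The median over cytosolic members was -0.05 and over mitochondrial members 0.06, with 13 of 16 mitochondrial genes positive, against -0.01 over all genes. The share of uniquely aligned reads that fell outside genes was 27.1% ± 4.20 (SD, n = 10) in ethanol and 22.5% ± 1.91 (n = 9) in water homogenates. With that share as a covariate 0 genes of all tested passed in place of 123, and Vars2, Nars, Aars and Yars stood at 0.20, -0.10, -0.11 and -0.11. Oligodendrocyte markers summed to 1592 to 7665 CPM in ethanol and 1506 to 12350 CPM in water homogenates, and their log2 fold changes were negative in 8 of 8 with a median of -0.72. Border macrophage markers were also negative in 8 of 8, at a median of -0.59 and sums of 38.7 to 100.5 CPM in ethanol and 38.9 to 210 CPM in water homogenates, and microglial markers were positive in 10 of 10, at 0.14 and sums of 573 to 677 and 523 to 665 CPM. The part of these markers in the values of the members was not tested. Within the first and second index sets Vars2 was at 0.21 and 0.27, Nars at -0.22 and -0.08, Aars at -0.20 and -0.09, and Yars at -0.20 and -0.10.

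The interaction between drinking and preparation tests whether the ethanol difference in microglia departs from that in homogenate. No member passed by edgeR (0.342% of 15797 genes did), 6 of 36 (16.7%) had an unadjusted p under 0.05 against 1956 of all genes (12.4%), and DESeq2 called Aars and Yars, with 1.57% of 17335 genes. The leading members were Aars at 0.42 (SE 0.10, adjusted p = 0.0544), Yars at 0.37 (SE 0.10, adjusted p = 0.0595), Tars at 0.29 (SE 0.10, adjusted p = 0.164) and Iars at 0.24 (SE 0.10, adjusted p = 0.263), where a positive value means a higher ethanol-to-water ratio in microglia. By DESeq2 Aars had 0.40 (adjusted p = 0.0234) and Yars 0.36 (adjusted p = 0.0241), each the lowest adjusted p over the alternatives, whose highest was 0.260 for both. Without mouse 3 edgeR passed both genes, and without mouse 7 Aars alone. Without mice 19 and 24 Aars stood at 0.33 and Yars at 0.32. Of the cytosolic members 16 of 20 were positive, with a median of 0.08, against -0.07 over mitochondrial members and 0.03 over all genes. Wars was at 0.10 (SE 0.09, adjusted p = 0.714) and Lars2 at -2.84 (SE 1.16, adjusted p = 0.276), the latter -0.29 without mouse 24. Oligodendrocyte markers had a median interaction of 1.26, positive in 8 of 8, and border macrophage markers of 0.31, positive in 8 of 8. Neutrophil markers had a median of -2.75, negative in 10 of 10, which was -0.53 without mouse 19 (negative in 8 of 10) and 1.09 without mice 19 and 24 (positive in 9 of 10). The part of these markers was not tested.

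The 5 members with the TGATGNAA core and the 7 cytosolic members without it in their windows can be set side by side. This is a description only, since the comparisons share libraries or mice. Dars, Kars and Sars are among the 7, and no GENCODE start was found in their windows. The median log2 fold change with and without the core was 0.18 and -0.02 for ethanol in microglia, -0.12 and 0.01 for ethanol in homogenate, 0.29 and 0.03 for the interaction and 0.03 and -0.17 for LPS. All 5 with the core were positive for ethanol in microglia and none was in homogenate, while after LPS 3 were positive. Without the core 3, 4 and 2 of 7 were, and over all genes 6211 of 13223, 7247 of 15215 and 6148 of 12469. Between preparations the medians with and without the core were 0.22 and 0.30 in water mice and 0.78 and 0.23 in ethanol mice. The matches are shown because of the p of Aars and Yars in these same treatment comparisons, so the split is no test of the core. Gars, which has the core, had 35.1, 52.6 and 65.4 CPM in water and 40.6, 54.8 and 64.6 CPM in ethanol microglia, and Iars 79.3, 87.5 and 102 and 80.8, 99.6 and 125 CPM, and neither passed.

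**Figure D5:**
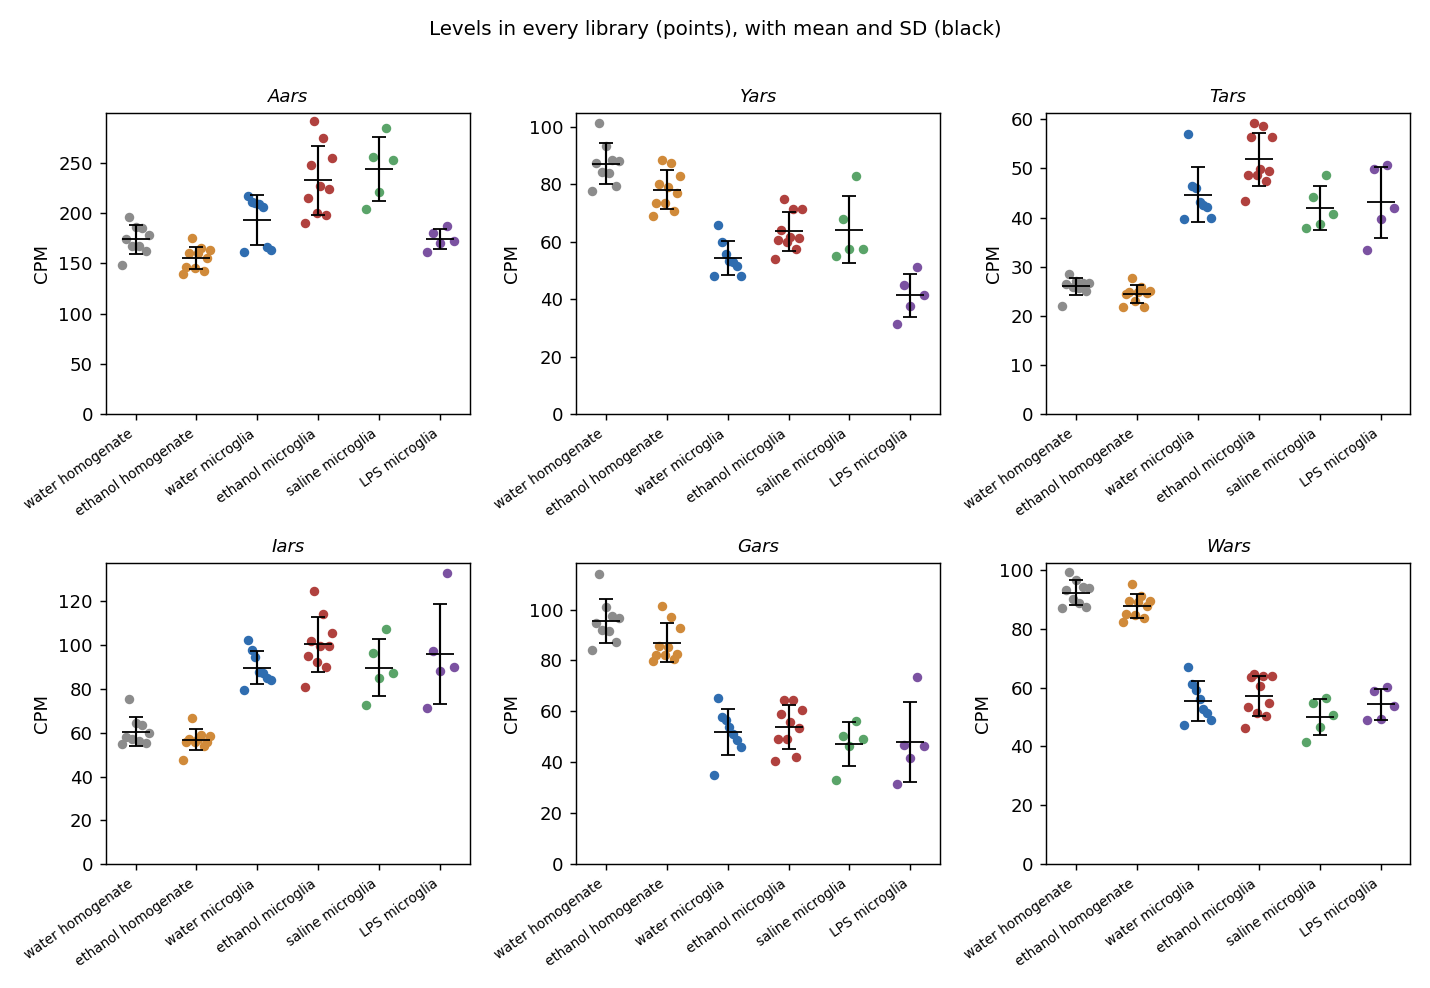
CPM of Aars, Yars, Tars, Iars, Gars and Wars in every library of the 6 groups (points), with the group mean and SD in black and each axis starting at 0. In Aars and Yars all 5 LPS libraries lie below all 5 saline libraries, while Tars, Gars and Wars separate all homogenates from all microglial libraries.

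After LPS, Aars and Yars were the 2 members of 36 (5.56%) whose groups did not overlap, against 206 of all genes tested (1.65%). No member passed edgeR's test (0.016% of 12469 genes did), 5 of 36 (13.9%) had an unadjusted p under 0.05 against 721 of all genes (5.78%), and DESeq2 called Aars and Yars, with 1.29% of the 5500 genes to which it gave an adjusted p. Aars had 161, 180.4, 187, 172 and 169.9 CPM in the 5 LPS libraries and 221, 285, 255, 204 and 253 CPM in the 5 saline libraries. Yars had 44.9, 37.7, 41.5, 31.2 and 51.2 CPM after LPS and 57.5, 83.04, 67.8, 57.6 and 55.1 CPM after saline. In both genes every LPS library was below every saline library. The log2 fold change of Aars was -0.48 (SE 0.10, adjusted p = 0.18) by edgeR and -0.47 by DESeq2 (adjusted p = 0.000915), and that of Yars -0.63 (SE 0.17, adjusted p = 0.354) and -0.63 (adjusted p = 0.0397); over the alternatives adjusted p ran up to 0.512 and 0.795. Sars had 62.2, 52.8, 61.2, 54.95 and 55.04 CPM after LPS and 84.3, 89.004, 77.1, 61.6 and 71.6 CPM after saline, where only the lowest saline library and the highest LPS library crossed. Its log2 fold change was -0.42 (SE 0.14, adjusted p = 0.592). Lars had 63.8, 63.3, 60.03, 55.3 and 78.2 CPM and 84.7, 77.8, 86.1, 78.7 and 74.1 CPM, at -0.32 (SE 0.14, adjusted p = 0.808). The overlap in Lars came from 1 LPS library, that of mouse 51.

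Wars, the interferon gamma target, had 58.99, 49.2, 53.8, 49.01 and 60.3 CPM after LPS and 56.3, 46.7, 50.8, 41.4 and 54.9 CPM after saline, at 0.12 (SE 0.15, adjusted p = 0.992). Lars2 was at 0.11 (SE 0.59, adjusted p = 0.999), with a sign that changed when single libraries were left out. Over all 36 members 14 were positive and 22 negative, with a median of -0.11, against -0.0046 over all genes. Neutrophil markers were positive in 8 of 9, at a median of 0.48 and sums of 102 to 312 CPM after LPS and 89.8 to 314 CPM after saline. Oligodendrocyte markers were negative in 7 of 8, at -0.40 and sums of 220 to 359 and 262 to 358 CPM, and astrocyte markers positive in 7 of 8, at 0.30 and sums of 263 to 381 and 218 to 404 CPM. The groups overlapped in all 3 sums, and the part of these markers was not tested. All LPS and saline libraries belonged to one index set. With 5 libraries a group the spread was wide for the mitochondrial genes, with a median coefficient of variation of 29.7% in saline and 33.5% in LPS libraries. Aars shares 1326 exon bases (14.3%) with Exosc6 on the same strand, and 19.8% of the 75-base runs of its transcripts occur there too. Exosc6 itself, a subunit of the RNA exosome, had log2 fold changes of -0.31 after LPS, 0.14 for ethanol in microglia, -0.13 in homogenate and 0.30 for the interaction, and none passed.

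Genes tied to these enzymes passed no treatment comparison by edgeR. Of the 23 ATF4 targets tested for ethanol in microglia 17 were positive, with a median of 0.12, and 5 (21.7%) had an unadjusted p under 0.05, against 7.65% of all genes; DESeq2 called none. In homogenate 6 of 27 were positive, at a median of -0.07, with 4 (14.8%) under 0.05, against 16.1% of all genes, and 1 called by DESeq2. The interaction of Atf4 itself was 0.30 (SE 0.08, adjusted p = 0.0662), and 20 of 27 targets were positive at a median of 0.23, with 6 (22.2%) under 0.05, against 12.4% of all genes, and 0 called by DESeq2. After LPS Atf4 was at -0.41 (SE 0.12, adjusted p = 0.514), and the 26 targets tested had a median of -0.22, with 7 (26.9%) under 0.05, against 5.78% of all genes, and 0 called by DESeq2. Interferon gamma targets after LPS were positive in 13 of 14, at a median of 0.27, with 3 (21.4%) under 0.05 and 0 called by DESeq2. For ethanol in microglia they were positive in 6 of 14, with 2 (14.3%) under 0.05 and 0 called by DESeq2.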

How the data were processed

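Each of the 47 deposited files holds 1 library as unnormalized read counts, in whole numbers, with a gene symbol per row. The submitters' processing notes name STAR, HTSeq, DESeq2, FastQC and bcl2fastq 2.15.0.4 and the build mm10. The sources used here do not give the settings, the annotation or whether counting used the strand, so overlapping genes are uncertain. Per the labels' protocols, poly(A) RNA was made into directional libraries with 15 cycles of PCR and read as 75 bp pairs. The authors' tally rows (such as reads outside genes) were kept out of library totals and tests. The labels name no molecular identifiers, and floors cover counting error only.

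All genes were tested with edgeR 4.0.16 in R 4.3.3 (quasi-likelihood F-test, TMM scaling, filterByExpr, Benjamini-Hochberg adjustment over all genes tested, threshold 0.05), each of the 6 comparisons on its own groups; DESeq2 1.42.0 was an alternative. The SE is the log2 fold change over the square root of F. P-values measure the spread between mice in the treatment comparisons within one preparation. In the preparation comparisons and the interaction the main fit took the homogenate and microglial libraries of one mouse as independent. The replicate block was the alternative there. The code was tested on simulated counts. The floor for a count of 0 is 3 counts of the library.

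The members and lists were chosen with earlier results of these data known. Fold changes with tests are given for every member past the threshold where at most 12 passed, otherwise for the 6 that rose most and the 6 that fell most, and where none passed for the 4 with the smallest p; Wars and Lars2 were added in every comparison, and up to 3 genes of each other list. Folds of further members are given without p, and the test of Yars between preparations in ethanol mice was added after its values were seen.

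Homogenate and microglia with one number are from one mouse, as the protocol describes. With group means removed, the 18 pairs correlated over 13544 genes at a median of 0.0251 (range -0.0517 to 0.173). Libraries of one group always differed by more than sampling noise (lowest chi-square per degree of freedom 13.2, genes with at least 20 counts). Index sets were inferred, mouse by mouse, from the index numbers in the deposited names, which repeat between sets. The labels give no such sets and do not name them a batch. Gene positions, exon lengths and overlaps are from GENCODE M21 (GRCm38), promoters from RefSeq. One promoter match is not reported here.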

Additional observations from a re-analysis of the deposited data

Results flagged for a closer look

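A library far from the others of its group was looked for in each of the 36 genes and 6 groups, by the gap between the end value and its nearest neighbour against the whole range of the group. Of 216 such groups 19 had one, and chance marks about 1 in 20. No explanation was tested for any of them.

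Saline mouse 38 held 5 of the 19. Its microglia were lowest of the 5 saline libraries in Cars, at 28.003 CPM with the next at 43.5, and highest in Farsa (83.6 CPM, next 42.5), Kars (41.6, next 32.8), Qars (133, next 83.4) and Tars2 (67.97, next 33.7). Elsewhere among saline libraries Eprs reached 146 CPM in mouse 45 (next 116) and Sars2 17.2 CPM in mouse 46 (next 6.61). After LPS, Mars reached 81.5 CPM in mouse 44 (next 69.7).

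In water microglia, Lars2 reached 84524 CPM in mouse 24 (next 6381) and Iars2 was lowest there at 27.7 CPM (next 39.4); this is the shallowest library. Dars was highest in mouse 19, at 67.7 CPM (next 47.8), the library with neutrophil markers, and Tars in mouse 16, at 57.1 CPM (next 46.4).

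Among homogenates, Lars2 reached 7004 CPM in ethanol mouse 14 (next 1383), and Eprs 107 CPM in ethanol mouse 3 (next 94.6). In water homogenates Farsa reached 27.6 CPM (next 25.7) and Sars 173 CPM (next 153) in mouse 19, Farsb 43.1 CPM in mouse 24 (next 36.5) and Iars 75.5 CPM in mouse 26 (next 64.5), where Ears2 was lowest at 3.25 CPM (next 4.65).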

How the results depend on the processing

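The alternatives were DESeq2, other scaling, no filter on low counts, covariates for index set and reads outside genes, values within index sets, the replicate block, leaving out the libraries that stand apart, and leaving out each library or mouse. Of 255 alternative values other than single left-out libraries, 240 kept the direction and side of the threshold of the value reported, 5 passed it, 1 no longer passed and 9 changed direction. Of 643 with 1 library or mouse left out, 628 stayed, 5 passed and 10 changed direction. Where no value below shows a cause, the cause was not tested.

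Members past the threshold numbered 1 by DESeq2 and 0 to 1 with a library left out for ethanol in homogenate, 2 by DESeq2 after LPS, and 2 by DESeq2 and 0 to 2 with a mouse left out for the interaction. With mouse 3 left out Aars and Yars stood at 0.43 and 0.40, and with mouse 7 left out Aars at 0.45.

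Lars2 for ethanol in microglia was -1.78, but 0.69 by DESeq2, 0.44 with reads outside genes as a covariate, 0.27 within index set 1, 1.00 without mice 19 and 24, and -2.19 to 0.73 over single libraries left out. In homogenate it was 1.08, but -0.0149 by DESeq2 and -0.0069 to 1.25 over left-out libraries. After LPS it ran from -0.40 to 0.49, negative without LPS mouse 40 (-0.40) or 51 (-0.21) or saline mouse 45 (-0.03) or 49 (-0.18). Its interaction was 0.0835 with the replicate block. Wars for ethanol in microglia was 0.02, but -0.0154 within index set 1 and -0.0183 within set 2, and -0.0139 to 0.0503 over left-out libraries. In homogenate it was -0.06, but 0.0133 with reads outside genes as a covariate.

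With the replicate block, which pairs the preparations of one mouse, 31 of the 32 members passed in water mice, without Lars2 (2.01), the same 28 passed in ethanol mice, and none did in the interaction; the block changed no other call. Over all genes, ethanol in homogenate gave 123 genes, 62 without the filter, and 0 within each index set; LPS gave 2 and 17 without the filter; ethanol in microglia gave 1, 0 within set 1 and 4 within set 2; the interaction gave 54, 0 with the replicate block and 85 without mice 19 and 24. The summed cytosolic level after LPS was 1487 CPM and 1559 CPM on TMM-scaled totals. Leaving Lars2 and Rn45s out of the library total, chosen after seeing the data, gave 1603 CPM in water microglia and 1527 CPM after LPS. Depth limits the lowest genes, where a count of 0 in Pars2 allows up to 0.144 CPM.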
